A study of Chlamydomonas reinhardtii with 6 samples.

Results

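The iron assimilation genes of the unicellular green alga Chlamydomonas reinhardtii were examined in cultures grown with 6 µM or 1000 µM manganese. They are 8 of the 17741 gene models in the deposited table: FOX1, FTR1, FRE1, FEA1, FEA2, TEF22, IRT1 and IRT2. They were taken by identifier, by a rule that uses no measured value but was written with earlier results of these data known. The symbols are the names these loci are known by, since the deposited table carries identifiers only. All 6 cultures were of strain CC-4532 in acetate-containing TAP medium at 24 °C under continuous light. They were started from 1 starter culture and harvested at 3000000 cells per mL. The 3 cultures with 6 µM manganese are the controls per the labels, the 3 with 1000 µM carried no other stated change, and how much iron the medium held is not stated in the sources used here.

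Iron in an oxygenated medium is mostly ferric and poorly soluble. Chlamydomonas takes it up by reducing it at the cell surface, re-oxidising it with a multicopper ferroxidase and passing it through a permease, as yeast does, and secreted iron-binding proteins in the periplasm assist this uptake. Most of the 8 genes are textbook markers of iron deficiency in this alga, where their RNAs rise, and manganese and iron compete for some divalent metal transporters.

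Values are FPKM, fragment counts scaled to transcript length and library size, so levels can be compared between genes. The number of reads behind 1 FPKM, relative to 6 µM replicate 1, was 1.08 and 1.12 in 6 µM replicates 2 and 3 and 1.03, 0.713 and 0.851 in 1000 µM replicates 1, 2 and 3. After this adjustment the values of 6 members were whole multiples of a common step, as whole reads would give, and they are quoted below as steps. Across all 12543 genes tested, 6 µM replicate 1 and 1000 µM replicate 3 shared their deviations from the group means (r = 0.752, a description across genes). Among the iron genes it was instead 6 µM replicate 2 that stood apart, so results are given with and without it.

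No tested iron assimilation gene differed between 1000 µM and 6 µM manganese beyond the spread between cultures. With a mean of at least 1 FPKM, 6 of the 8 members were tested, and 0 of them passed an adjusted p of 0.05 in the moderated test of limma, adjusted by Benjamini-Hochberg over all tested genes (background 0% of genes). At an unadjusted p under 0.05 there were also 0 of 6, where 2.82% of all tested genes lay. The groups overlapped for every tested member, and they did not for 8.04% of all tested genes. With shares this small, counts of 0 among 6 genes do not set the iron genes apart from other genes. The median difference of log2(FPKM + 1) was 0.047 over the tested members and 0.011 over all tested genes. In bulk RNA, a change in the share of cells that express a gene and a change in RNA per cell cannot be told apart.

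**Figure D1:**
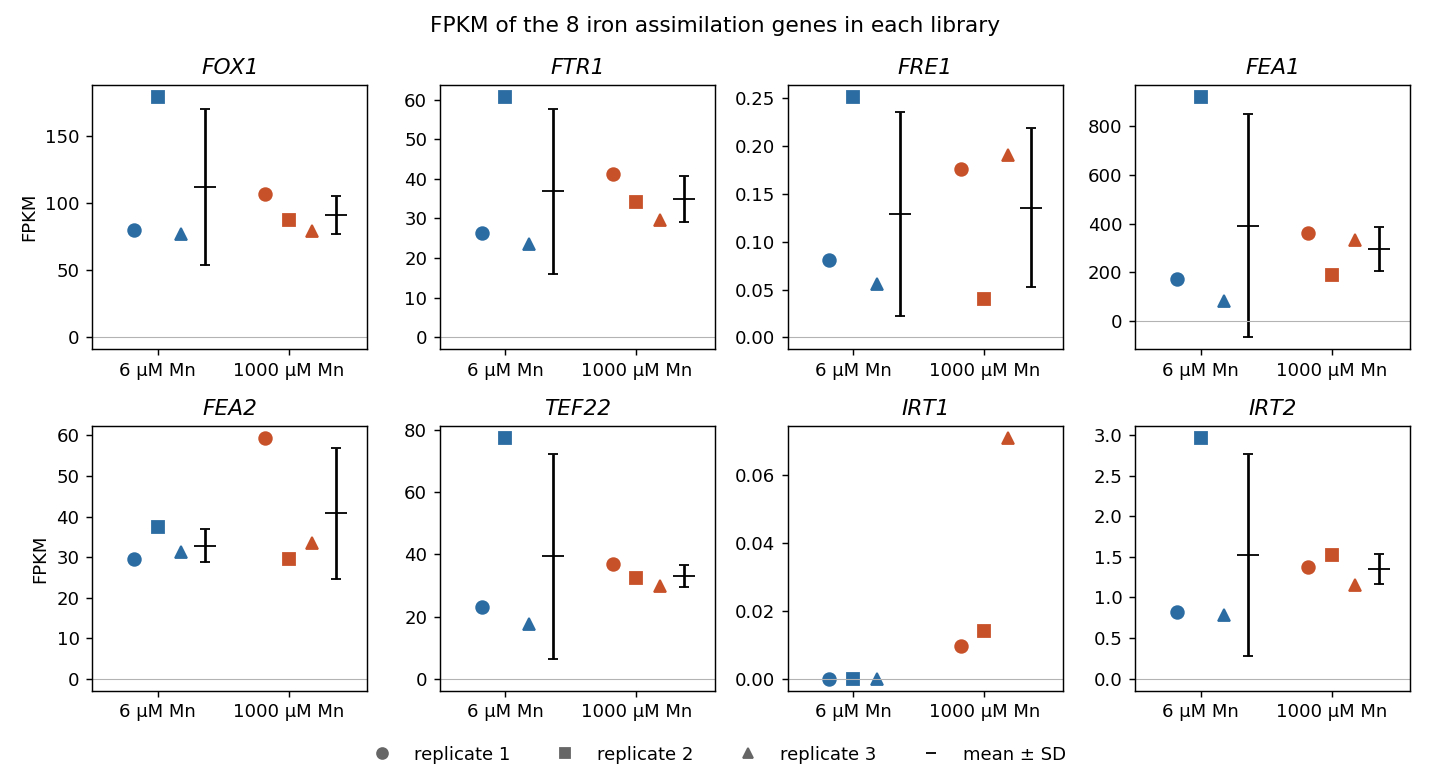
FPKM (vertical axis, linear, a separate scale per gene) of the 8 genes in each library, with 6 µM manganese in blue and 1000 µM in orange, symbols for replicates, and mean ± SD (n = 3) in black except for IRT1, which is listed at 0 in the 6 µM libraries. The square at 6 µM, replicate 2, is the highest point for 6 of the 8 genes, and for FEA1 it stands at 921 FPKM.

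The high-affinity uptake pair was well expressed at both manganese levels. FOX1 (Cre09.g393150.v5.5, chromosome 9 from 2173636 to 2185319) encodes the multicopper ferroxidase that oxidises ferrous iron for uptake. It stood at 80.4, 179.5 and 77.4 FPKM in 6 µM replicates 1, 2 and 3 and at 107.2, 87.6 and 79.6 FPKM in 1000 µM replicates 1, 2 and 3. Replicate 2 at 6 µM was the highest of all 6 libraries, and the other 2 controls lay on either side of the lowest 1000 µM culture. The control mean was 112 ± 58.1 FPKM, and the mean with 1000 µM was 91.5 ± 14.2 FPKM (SD, n = 3 each). The difference of log2(FPKM + 1) was -0.19 with a 95% interval from -0.88 to 0.50, a 0.543-fold to 1.41-fold span (limma adjusted p = 1.00; exact two-sided permutation p = 0.9).

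FTR1 (Cre03.g192050.v5.5, chromosome 3 from 6157033 to 6160982) encodes the iron permease that works with the ferroxidase. Its values were 26.2, 60.6 and 23.5 FPKM at 6 µM and 41.2, 34.1 and 29.5 FPKM at 1000 µM. These correspond to 3679, 9214 and 3701 steps at 6 µM and 5969, 3409 and 3521 at 1000 µM. The control replicate 2 again lay above every other library, and the other control cultures lay below all 3 cultures with 1000 µM. The log2 difference was 0.045 with a 95% interval from -0.69 to 0.78 (limma adjusted p = 1.00; exact permutation p = 1).

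FOX1 and FTR1 moved together from library to library, and over all 6 libraries their ratio varied less than either gene. That contrast rests largely on 6 µM replicate 2. Without it FOX1 ran from 77.4 to 107.2 FPKM and FTR1 from 23.5 to 41.2 FPKM, while the ratio kept its full range of 2.57 to 3.29. FOX1 spanned 2.32-fold and FTR1 2.58-fold over the 6 libraries, while the ratio of FOX1 to FTR1 spanned 1.28-fold. It was 3.06, 2.96 and 3.29 at 6 µM and 2.60, 2.57 and 2.70 at 1000 µM, so every library with 1000 µM lay below every control. The means were 3.11 ± 0.170 and 2.62 ± 0.0657 (SD, n = 3 each), a log2 difference of -0.24. The exact two-sided permutation p was 0.1, the smallest that 3 against 3 libraries allow, and 0.3 after Benjamini-Hochberg adjustment over the 3 ratios that could be tested. Ratios of FOX1 to each other tested gene above 0 separated the groups in 0.343% of cases, and those of FTR1 in 0.167%. Both genes were far higher in 6 µM replicate 2, so ratios to genes without that peak tend to overlap. These shares therefore do not measure how rare such a separation is, and 8.04% of single tested genes separated the groups. The ratio kept its direction in all 13 alternatives, from -0.28 to -0.20, including the omission of 6 µM replicate 2. A scaling factor cancels within a library, and no omission can turn groups that do not overlap. Most of these alternatives therefore could not change the direction and add no support.

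FRE1 (Cre04.g227400.v5.5, chromosome 4 from 3355079 to 3363615), which encodes a ferric reductase of the cell surface, was under 1 FPKM in all 6 libraries and was not tested. It stood at 0.0812, 0.251 and 0.0553 FPKM at 6 µM and at 0.175, 0.0402 and 0.191 FPKM at 1000 µM, or 17, 57 and 13 against 38, 6 and 34 steps. As for its partners, control replicate 2 was the highest library, and the groups overlapped. In the fit with no filter on low values the log2(FPKM + 1) difference was 0.0095 with a 95% interval from -0.17 to 0.19, on a scale that flattens values this low (limma adjusted p = 1.00).

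The genes of the periplasmic proteins FEA1 and FEA2 lie side by side, with TEF22 next to them. In assembly Chlamydomonas_reinhardtii_v5.5, FEA2 occupies positions 8666912 to 8670847 of chromosome 12, FEA1 positions 8671306 to 8675189 and TEF22 positions 8675408 to 8681279. The gap is 458 bp between FEA2 and FEA1 and 218 bp between FEA1 and TEF22. FEA1 and FEA2 encode related iron-assimilating proteins, and reads that match both genes could be divided by the counting. FEA1 was also first described as a secreted protein induced by high CO2.

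FEA1 (Cre12.g546550.v5.5) was the most abundant and the most variable member. It stood at 173, 921 and 82.3 FPKM in 6 µM replicates 1, 2 and 3 and at 363, 190.2 and 333 FPKM in 1000 µM replicates 1, 2 and 3. The highest and the lowest library were both controls, 11.2-fold apart, and the 3 cultures with 1000 µM lay between them within a 1.91-fold span. The control mean was 392 ± 460.4 FPKM, and the mean with 1000 µM was 295 ± 92.3 FPKM (SD, n = 3 each), yet on the log2 scale the difference was 0.27, since 1 high value weighs more in a mean of FPKM. Its 95% interval ran from -1.44 to 1.98, which leaves anything from 0.368-fold to 3.93-fold (limma adjusted p = 1.00; exact permutation p = 0.9).

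FEA2 (Cre12.g546600.v5.5) did not follow the wide swing of its neighbour among the control cultures. At 1000 µM both genes were highest in replicate 1 and lowest in replicate 2. Its values were 29.6, 37.5 and 31.3 FPKM at 6 µM and 59.3, 29.6 and 33.4 FPKM at 1000 µM, or 2881, 3953 and 3419 against 5964, 2048 and 2763 steps. The highest library was 1000 µM replicate 1, and the other 5 lay between 29.6 and 37.5 FPKM. The log2 difference was 0.24 with a 95% interval from -0.30 to 0.79 (limma adjusted p = 1.00; exact permutation p = 0.7). The ratio of FEA1 to FEA2 was 5.83, 24.5 and 2.63 at 6 µM and 6.11, 6.43 and 9.98 at 1000 µM. It spanned 9.33-fold, and both extremes were again controls. The difference of this log2 ratio between the groups was 0.020 (exact permutation p = 1; 1 after adjustment).

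TEF22 (Cre12.g546500.v5.5), the gene on the other side of FEA1, did follow it among the control cultures. At 1000 µM its order differed, with replicate 3 the lowest for TEF22 and replicate 2 for FEA1. It was at 23.1, 77.4 and 17.7 FPKM at 6 µM and at 37.0, 32.3 and 30.0 FPKM at 1000 µM, or 4624, 16775 and 3975 against 7649, 4606 and 5098 steps. Control replicate 2 was highest, control replicates 1 and 3 were lowest, and the 1000 µM cultures lay close together between them. The log2 difference was 0.049 with a 95% interval from -0.99 to 1.09 (limma adjusted p = 1.00; exact permutation p = 1). The ratio of TEF22 to FEA1 lay between 0.0840 and 0.215, a 2.56-fold span, with a log2 difference of -0.21 between the groups (exact permutation p = 0.7; 1 after adjustment).

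The gene models that flank this trio were flat. Cre12.g546650.v5.5, 138 bp beyond FEA2, averaged 64.6 ± 4.24 FPKM in controls and 64.9 ± 4.02 FPKM with 1000 µM (SD, n = 3 each). Cre12.g546450.v5.5, only 6 bp beyond TEF22, averaged 2.02 ± 0.327 and 1.72 ± 0.189 FPKM. Both are named as the nearest flanks, after their values were seen. Of the 20 gene models that lie within 2 places of a member and are not members, 16 were tested and 0 had an unadjusted limma p under 0.05, nor an adjusted one. Their log2 differences ran from -0.17 to 0.15 with a median of 0.0075. The smallest p-values were those of Cre03.g192000.v5.5, beside FTR1, at 5.28 ± 0.494 and 4.58 ± 0.153 FPKM (limma unadjusted p = 0.110, adjusted p = 1.00), and of Cre09.g393100.v5.5, beside FOX1, at 0.899 ± 0.195 and 1.11 ± 0.121 FPKM (limma unadjusted p = 0.146, adjusted p = 1.00).

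The ZIP family members, IRT1 and IRT2, were low, with FRE1 between them in level. IRT1 and IRT2 encode transporters named for their likeness to the plant iron-regulated transporters, and they are neighbours on chromosome 12, 1508 bp apart. IRT2 (Cre12.g530350.v5.5, from 5438306 to 5442687) stood at 0.824, 2.96 and 0.779 FPKM at 6 µM and at 1.38, 1.52 and 1.15 FPKM at 1000 µM, or 130, 506 and 138 against 225, 171 and 154 steps. It was above 1 FPKM in 4 of the 6 libraries, with control replicate 2 the highest and the other 2 controls the lowest. Its log2(FPKM + 1) difference was 0.0012 with a 95% interval from -0.63 to 0.63 (limma adjusted p = 1.00; exact permutation p = 1).

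IRT1 (Cre12.g530400.v5.5, from 5444196 to 5447896) was the nearest to absent and lay under 1 FPKM in every library. It was listed at 0 in all 3 libraries with 6 µM and at 0.00972, 0.0141 and 0.0709 FPKM in 1000 µM replicates 1, 2 and 3. These values stood as 1, 1 and 6 steps, so the separation of the groups rests on very few reads and no fold is given. The exact permutation p was 0.1, the smallest possible here. In the fit with no filter the log2(FPKM + 1) difference was 0.044 with a 95% interval from -0.015 to 0.10 (limma adjusted p = 1.00).

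The order of levels was stable at its ends. FEA1 exceeded FOX1 in 6 of 6 libraries, by 1.06-fold to 5.13-fold, and FOX1 exceeded FEA2 in 6 of 6. FEA2, TEF22 and FTR1, with means over all libraries of 36.8, 36.2 and 35.9 FPKM, could not be ordered: FEA2 was above TEF22 in 4 of 6 libraries and TEF22 above FTR1 in 2 of 6. FTR1 exceeded IRT2 in 6 of 6 libraries by at least 20.5-fold, followed by FRE1 and then IRT1, again in 6 of 6.

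For 5 of 6 tested members, FEA2 being the exception, the widest variation lay among the control cultures. Among the tested members 5 of 6, all but FEA2, were highest in 6 µM replicate 2, a library that was highest for 19.0% of all tested genes. The same 5 were lowest in 6 µM replicate 3, which was lowest for 16.9% of all tested genes. FTR1, FEA1, TEF22 and IRT2 shared the order of 6 µM replicate 2 first, the 1000 µM cultures between, 6 µM replicate 1 next and 6 µM replicate 3 last. That order, picked out after the values were seen, was found in 96 of the 12543 tested genes (0.765%), these 4 included.

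**Figure D2:**
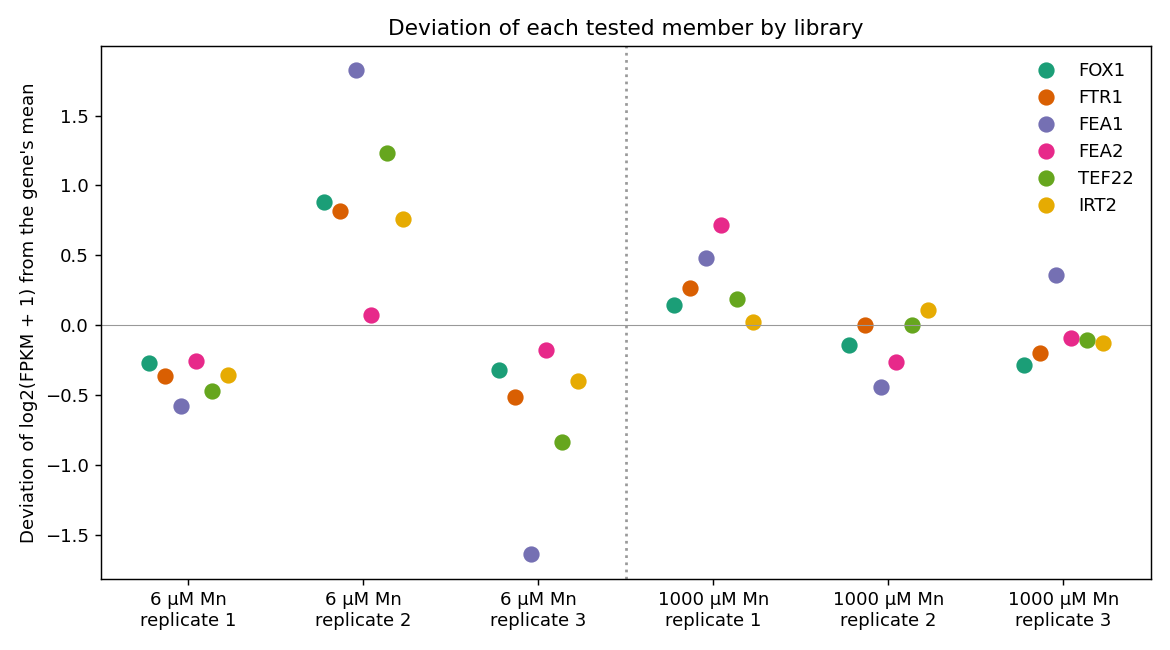
Deviation of log2(FPKM + 1) from the gene's mean over all libraries (vertical axis) for the 6 tested members in each of the 6 libraries; each point is 1 gene in 1 library. In 6 µM replicate 2 the points lie from 0.072 for FEA2 to 1.83 for FEA1, and in 6 µM replicate 3 all 6 lie below 0, down to -1.64 for FEA1.

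The SD of log2(FPKM + 1) among the 3 control cultures was 1.78 for FEA1, 1.10 for TEF22, 0.73 for FTR1, 0.68 for FOX1 and 0.66 for IRT2, against a median of 0.12 over all tested genes. For FOX1, FTR1 and IRT2 this spread rests on 6 µM replicate 2. Their values in 6 µM replicates 1 and 3 lay close together, at 80.4 and 77.4, 26.2 and 23.5, and 0.824 and 0.779 FPKM. The value of FEA1 was reached by 3 tested genes (0.0239%), namely FEA1, Cre04.g223100.v5.5 and Cre03.g162800.v5.5, and that of IRT2 by 35 (0.279%). FEA2 was the exception at 0.17, a value that 28.8% of genes reached. Among the 3 cultures with 1000 µM the order was another one: FEA2 had an SD of 0.52, reached by 0.805% of genes, and TEF22 and IRT2 had 0.15 and 0.12, reached by 45.0% and 59.1%. The difference in spread between the manganese levels was not tested.

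**Figure D3:**
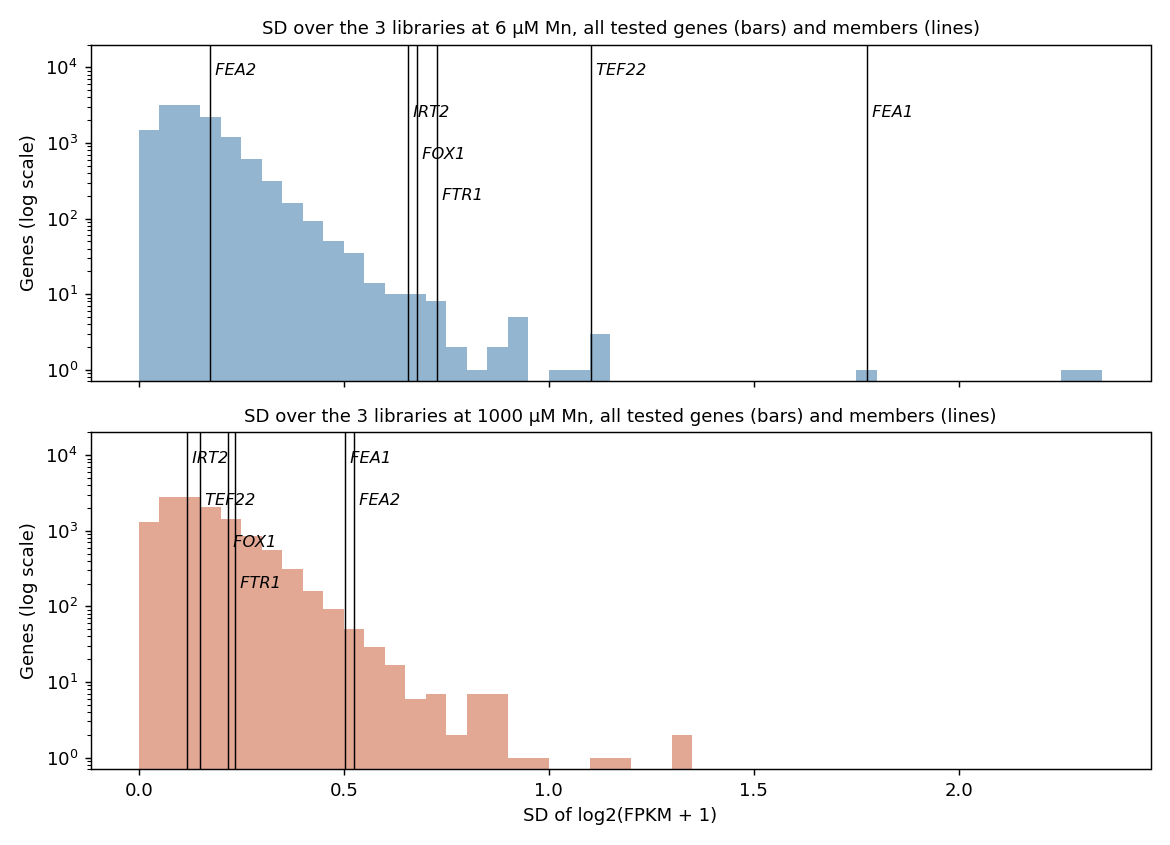
Histograms of the SD of log2(FPKM + 1) over the 3 libraries at 6 µM (top) and at 1000 µM manganese (bottom) for all tested genes, with the number of genes on a log axis; vertical lines mark the 6 tested members. At 6 µM, 5 members lie in the far tail from 0.66 to 1.78, and at 1000 µM FEA1 and FEA2 lie farthest out, at 0.50 and 0.52.

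Without 6 µM replicate 2, each of the 6 tested members had a higher mean log2 value at 1000 µM, with a median difference of 0.42 against 0.012 over all tested genes. FEA1 then differed by 1.25 on the log2 scale (95% interval 0.37 to 2.12, limma unadjusted p = 0.0121). TEF22 differed by 0.68 (0.31 to 1.04, limma unadjusted p = 0.00318) and FTR1 by 0.46 (0.089 to 0.84, limma unadjusted p = 0.0221). IRT2 differed by 0.38 (0.15 to 0.61, limma unadjusted p = 0.00584). These 4 members were higher in all 3 cultures with 1000 µM than in both remaining controls, as were 7.89% of all tested genes. At an unadjusted p under 0.05 and higher at 1000 µM there were 4 of 6 members against 1.17% of all genes. FOX1 at 0.20 and FEA2 at 0.34 had intervals that included 0. None of the 6 passed the adjusted threshold, and the smallest limma adjusted p was 0.783, for TEF22. The library left out is the one in which these genes stood highest, so this result describes the remaining 5 cultures and carries no independent support.

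**Figure D4:**
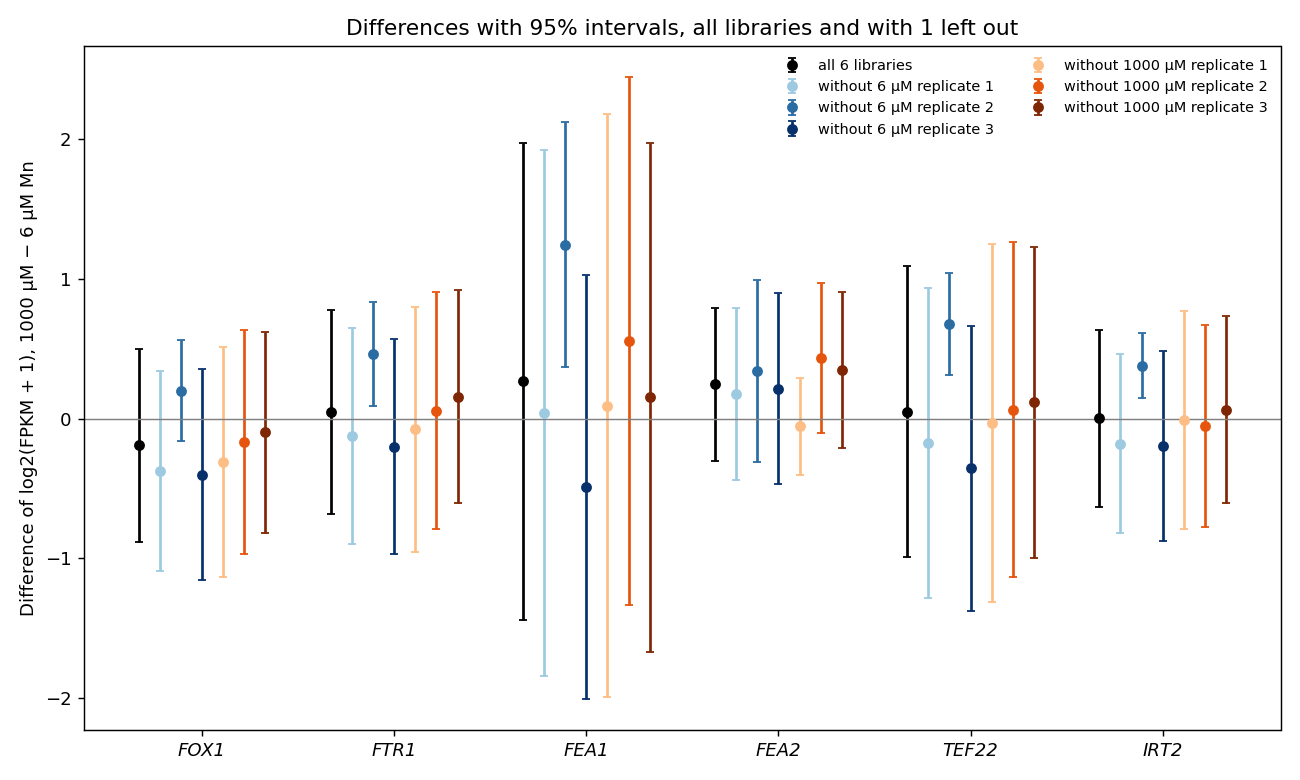
Difference of log2(FPKM + 1) between 1000 µM and 6 µM manganese (vertical axis) with 95% intervals from limma for the 6 tested members, from all 6 libraries (black) and with each library left out in turn (colours). With all libraries every interval includes 0, and without 6 µM replicate 2 those of FTR1, FEA1, TEF22 and IRT2 lie above 0.

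The other controls pulled the values the opposite way. Without 6 µM replicate 3 the log2 difference was -0.49 for FEA1, -0.36 for TEF22, -0.20 for FTR1 and -0.20 for IRT2, each with an interval that included 0. Without 6 µM replicate 1 it was 0.042, -0.17, -0.13 and -0.18 for the same genes. For FEA2 the sign rested on 1000 µM replicate 1, without which the difference was -0.054.

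The genes whose pattern over the 6 libraries was most like that of FEA1, the tested member with the largest SD, were sought by the root-mean-square difference of the deviations from each gene's own mean log2(FPKM + 1). The nearest of 12542 genes was Cre07.g336800.v5.5 (chromosome 7 from 3611516 to 3613640), at a difference of 0.47. It stood at 10.4, 32.7 and 6.83 FPKM at 6 µM and at 14.4, 13.3 and 20.7 FPKM at 1000 µM, so it too was highest in control replicate 2 and lowest in control replicate 3. The next nearest were members, TEF22 at 0.50 and FTR1 at 0.70. FOX1 ranked at place 6, IRT2 at 9 and FEA2, although it lies next to FEA1, at 282. The deviations were not scaled to each gene's spread, so a gene with the same pattern but smaller swings ranks lower.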

How the data were processed

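Poly-A RNA from 6 cultures was sequenced on the Illumina HiSeq platform, per the labels' protocols. The values are FPKM as the authors deposited them, in 1 table with a column per library. The submitters' processing notes list Cuffdiff 2.2.1, STAR and CASAVA, without settings, and the alignment build and strand setting are not stated in the sources used here. Columns were matched to samples by manganese level and replicate number, and no per-sample column was unused. The replicates are flasks that share a starter culture, so p-values measure the spread between such flasks, and no batch is labelled.

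The members and lists were chosen with earlier results of these data known. Of the 17741 identifiers 17738 matched, by locus tag, the RefSeq gene table of assembly Chlamydomonas_reinhardtii_v5.5, the source of all positions. It holds no gene names, functions or proteins, so the planned list of relatives of the members by sequence or annotation was not run, and other genes are given by identifier only. By rule the genes named are all 8 members, the 2 neighbours with the smallest p, and the 3 genes most like the most variable member. Outside that rule, and after their values were seen, the nearest flanks of the FEA2, FEA1 and TEF22 trio and 4 genes with a large SD at 6 µM are also named.

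Values were tested as log2(FPKM + 1), which understates changes of low genes, for genes whose mean over the 6 libraries reached 1 FPKM. The test was limma 3.58.1 in R 4.3.3 (lmFit, eBayes with trend), two-sided, with Benjamini-Hochberg adjustment over 12543 genes, a threshold of 0.05 and 95% intervals. It was checked on simulated data with independent noise in each library. The real libraries share deviations across genes, which that check does not cover. Exact permutation tests enumerated every assignment of 3 and 3 libraries. FPKM does not keep the absolute depth. Relative reads per FPKM came from the most frequent ratio between libraries among genes with a mean under 0.15 FPKM. Steps are the smallest common unit that made a member's adjusted values whole within 0.02 in all libraries above 0. They were found for 6 members and not for FOX1 and FEA1, with multiples up to 5000 of the lowest library tried. No count model was run. Deviations of same-numbered libraries correlated at -0.40, 0.51 and -0.50 across genes. These signs differ, so numbers were not treated as pairs in the main test. Whether the cultures were paired cannot be settled from these values. Alternatives changed the pseudocount, filter, scaling, variance model, weights or block, or left out libraries. Figures were drawn with matplotlib 3.10.9.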

Additional observations from a re-analysis of the deposited data

How the results depend on the processing

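The count of 0 members at an adjusted p under 0.05 held in all 17 alternatives, among them the replicate block (0 members) and library quality weights. Over all genes no setting called more than 26, of 12543 tested with library quality weights. The count of 0 is therefore near the background and is no result about the members. The lowest limma adjusted p of any member was that of FEA2 with quality weights. The signs of the differences, none of which passed the threshold, did not hold. Over single libraries left out, the log2 difference ranged from -0.40 to 0.20 for FOX1, from -0.20 to 0.46 for FTR1, from -0.49 to 1.25 for FEA1, from -0.054 to 0.44 for FEA2, from -0.36 to 0.68 for TEF22 and from -0.20 to 0.38 for IRT2. Quality weights turned FOX1 to 0.074 and gave larger values for FEA1, 0.85, and FEA2, 0.71, the latter with a 95% interval from 0.20 to 1.21 (limma unadjusted p = 0.0114, adjusted p = 0.351). Scaling to the same FPKM total turned FTR1, TEF22 and IRT2 to -0.040, -0.035 and -0.041, and quantile normalization turned FTR1 to -0.0021. Median-of-ratios scaling turned IRT2 to -0.0032, and a pseudocount of 5 turned it to -0.022. Leaving out both 6 µM replicate 1 and 1000 µM replicate 3 turned FTR1, FEA1, TEF22 and IRT2 to -0.014, -0.072, -0.11 and -0.12. The FEA1 to FEA2 log2 ratio difference was -0.031 after quantile normalization, -0.36 without both libraries, and from -0.71 to 0.90 with 1 library left out. That of TEF22 to FEA1 ranged from -0.55 to 0.13 with 1 library left out, and that of FOX1 to FTR1 from -0.28 to -0.20. Equal totals shifted the median over all genes from 0.011 to -0.061. The cause was not tested. IRT2 was not tested at a minimum mean of 5 FPKM, and the IRT1 to IRT2 ratio could not be tested, because IRT1 is listed at 0 at 6 µM. Few reads limit what can be said of FRE1 and IRT1.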

Other observations

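The gene models that varied most among the 3 control cultures include genes that lay opposite to FEA1 and TEF22 in 6 µM replicate 2. They were singled out after their values were seen, and the reference table gives them no name. Of the 6 tested genes with an SD of log2(FPKM + 1) at 6 µM at least as large as that of TEF22, the 4 that are not members were all lowest in 6 µM replicate 2, the library in which FEA1 and TEF22 were highest. Cre04.g223100.v5.5 stood at 1017, 49.6 and 610.4 FPKM in 6 µM replicates 1, 2 and 3 and at 490.4, 132 and 758 FPKM in the 1000 µM cultures. Cre03.g162800.v5.5 stood at 23.4, 0.390 and 16.6 FPKM at 6 µM and at 8.30, 1.11 and 9.79 FPKM at 1000 µM. Cre05.g248400.v5.5 was at 35.6, 8.89 and 37.3 FPKM at 6 µM and at 14.9, 10.2 and 11.98 FPKM at 1000 µM. Cre06.g309000.v5.5 was at 11.9, 1.92 and 7.34 FPKM at 6 µM and at 5.68, 2.99 and 9.77 FPKM at 1000 µM. Like FEA1 and TEF22, all of these but Cre05.g248400.v5.5 were higher in 6 µM replicate 1 than in 6 µM replicate 3. In all 4, 1000 µM replicate 2 was the lowest of its own group. FEA1, at 190.2 FPKM, was also lowest of that group there.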
